A study of Mus musculus with 20 samples.

Results

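The Myc family of transcription factors and the partners that compete with it were followed across mouse sarcomas and cultured mesenchymal cells. The genes were Mycn, Myc, Max, Mxd1 and Mxi1, and every probe set that the array's gene table names for 1 of them was taken. The genes were chosen by their signals in eMC CIC-DUX4 against eMC empty, with the discordance of the Mycn probe sets in view. Of the 5 genes, 4 were named there, with 9 probe sets (3 for Mycn, 1 for Myc, 3 for Mxd1 and 2 for Mxi1), against 17097 genes and 45037 probe sets in the whole series. The table used here pairs no probe set with Max, which was not analysed here. Of the 9 probe sets, 8 exceeded the median of their array in at least 4 of the 20 arrays and entered the tests. The ninth, Mxd1 1422002_PM_at, did so in 3 arrays.

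The series holds 20 arrays in 4 groups. CDS tumors (6 arrays) were mouse tumors labelled CIC-DUX4 sarcoma, a cancer driven by a fusion of CIC, a repressor, to part of DUX4. ES tumors (6 arrays) were mouse tumors labelled Ewing sarcoma. Both tumor types had grown under the skin of Balb/c nude mice, hosts that lack mature T cells, and neither was treated. Primary embryonic mesenchymal cells (eMC), grown in Iscove's medium with 15% fetal bovine serum, had been given the retrovirus pMYs-CIC-DUX4-IRES-GFP (eMC CIC-DUX4, 4 arrays) or pMYs-IRES-GFP (eMC empty, 4 arrays) and were taken 48 hours later. Every eMC sample thus carried a retroviral vector with GFP. The sources used here do not give the share of eMC that took up the virus, the strain or genotype of the cells, the age of the hosts or how either tumor type was made. They do not say whether the samples of a group were separate cultures or tumor lines, so p-values measure the spread between these samples. In these bulk samples, fewer cells of a type and less RNA per cell cannot be told apart.

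Myc and N-myc, the protein of Mycn, bind DNA as dimers with Max at the E-box CACGTG and raise transcription of genes for ribosome assembly, nucleotide synthesis and growth. Mxd1 and Mxi1 also pair with Max, occupy the same sites and recruit co-repressors. Mycn is best known from embryonic tissues and from neuroblastoma, where the human gene is often amplified. Wild-type CIC represses its targets through the octamer TGAATGAA or TGAATGGA, and the CIC-DUX4 fusion activates many of them.

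In GRCm38.p6, Mycn lies on chromosome 12 from 12936093 to 12941836, Max on the same chromosome from 76937269 to 76962323, Myc on chromosome 15 from 61985341 to 61990361, Mxd1 on chromosome 6 from 86647044 to 86669234 and Mxi1 on chromosome 19 from 53310128 to 53373293. The sources used here do not place the probe sets in exons or untranslated regions. RefSeq promoters (250 bases before to 50 after a start site, GRCm38.p6) matched Mycn, Max and Mxd1 with 1 each and Mxi1 with 3. Myc had no entry. Those of Mycn and of the upstream start of Mxi1 are shown because these genes had the strongest differences below and hold a match to a motif; the motifs were chosen with the sequences in view. Capitals mark the E2F-type words TTTGGCGC or TTTCGCGC in Mycn (minus strand, chr12:12941787-12942086) and the CIC octamer in Mxi1 (plus strand, chr19:53310256-53310555).
Mycn: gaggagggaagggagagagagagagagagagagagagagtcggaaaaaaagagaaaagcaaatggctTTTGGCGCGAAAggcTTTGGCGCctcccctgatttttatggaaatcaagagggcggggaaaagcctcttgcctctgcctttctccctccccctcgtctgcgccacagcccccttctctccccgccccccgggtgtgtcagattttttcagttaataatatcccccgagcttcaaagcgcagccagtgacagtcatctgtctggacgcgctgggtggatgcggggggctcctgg
Mxi1: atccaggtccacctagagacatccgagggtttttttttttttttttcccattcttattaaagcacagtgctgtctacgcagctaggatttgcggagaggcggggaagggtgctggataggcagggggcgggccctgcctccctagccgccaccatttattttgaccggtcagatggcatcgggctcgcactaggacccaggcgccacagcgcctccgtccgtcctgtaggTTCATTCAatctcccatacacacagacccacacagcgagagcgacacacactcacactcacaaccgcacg
The Mycn window held 3 E2F-type matches on both strands together, beginning 183, 179 and 168 bases before the start site, and the matches at 183 and 179 overlap. Of 32851 RefSeq promoters of this length, 0.813% held such a match on either strand. The octamer in Mxi1 is TGAATGAA read on the reverse strand, 20 bases before the start site, and 2.47% of the promoters held either form of the octamer. An E-box lay 3 bases before the start of Max, and 7.15% of the promoters held one. The Mxd1 promoter and the other Mxi1 promoters held none of the 3 motifs. These matches are letters in a window, and binding was not measured.

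Signals are given as log2(signal + 1.42), the log2 signal, and a log2 fold change is on the same scale. The arrays had been brought to a like trimmed mean, but the spread of values within an array was uneven. The 75th percentile (log2) ran from 4.90 to 8.92 in CDS tumors, from 7.53 to 8.66 in ES tumors, from 8.54 to 8.95 in eMC CIC-DUX4, and from 4.21 to 6.99 with the empty vector. The median log2 fold change over all 26897 probe sets was 1.98 for eMC CIC-DUX4 against eMC empty, 0.89 for CDS against eMC empty, -0.94 for CDS against eMC CIC-DUX4, 0.21 for CDS against ES and 0.41 for ES against eMC empty. Quantile normalization, which gives every array the same distribution, brought these medians to between -0.07 and -0.01, and fold changes are therefore given on both scales. Most arrays had a dip between a dim and a bright part of the distribution, between 3.36 and 8.18 on the log2 scale. A probe set above the dip of its array is called bright here. No dip was found in eMC CIC-DUX4 6. It was 1 of 3 arrays, beside CDS 2 and eMC CIC-DUX4 5, whose median exceeded 5 on the log2 scale.

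The 3 Mycn probe sets did not follow each other. Probe set 1425923_PM_at was high in eMC empty and in both tumor types and low in eMC CIC-DUX4. Probe sets 1417155_PM_at and 1425922_PM_a_at were bright in every ES tumor and in no eMC empty array. The gene table pairs 1425922_PM_a_at and 1425923_PM_at with the same source transcript record and 1417155_PM_at with another. Over the 20 arrays, 1417155_PM_at and 1425922_PM_a_at had a Pearson r of 0.919 as deposited and 0.953 after quantile normalization. Against 1425923_PM_at, r was 0.15 and 0.34 for 1417155_PM_at and 0.022 and 0.25 for 1425922_PM_a_at. These correlations are descriptions over arrays of 4 groups. The probe sets that share a record were thus not the pair that ran alike.

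**Figure D1:**
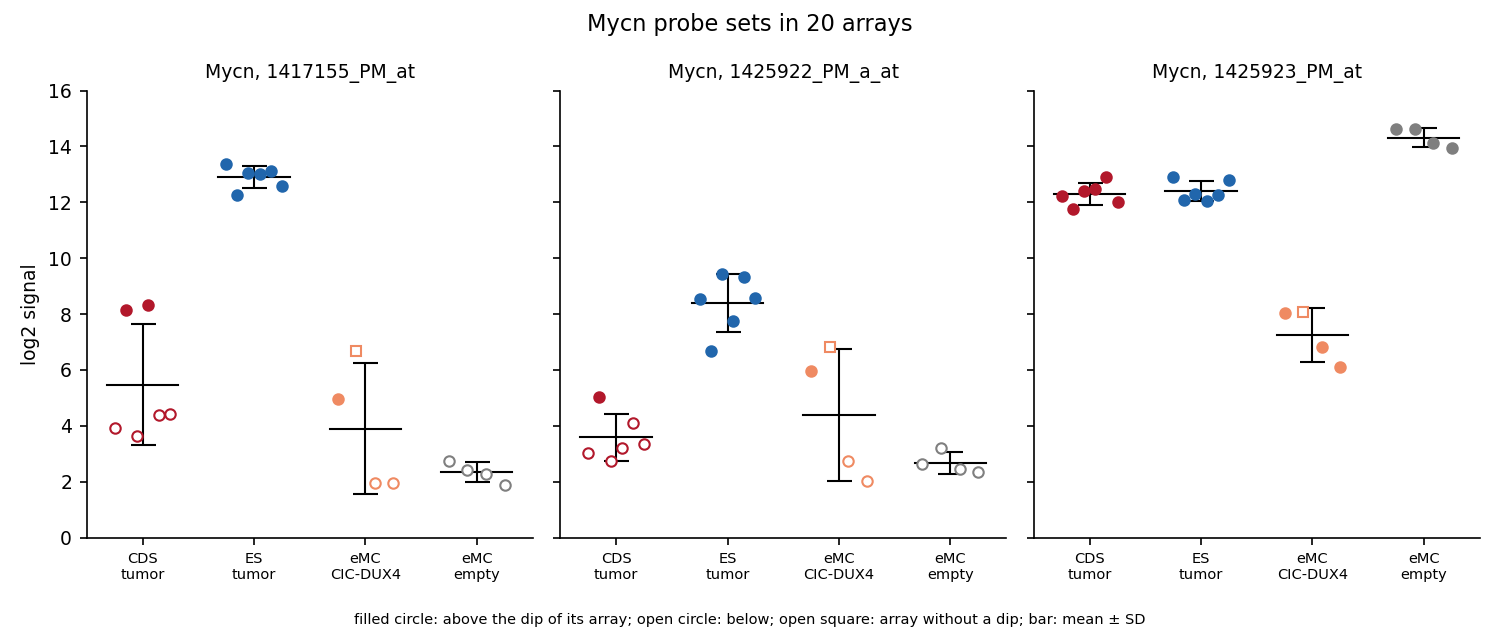
Log2 signal (y axis) of the 3 Mycn probe sets in each of the 20 arrays, by group (x axis). Filled circles lie above the dip of their array, open circles below it, the open square is the array without a dip, and bars give mean ± SD. In 1425923_PM_at the 4 eMC CIC-DUX4 arrays sit between 6.10 and 8.07, below all others; in 1417155_PM_at the 6 ES arrays sit between 12.28 and 13.38, above all others.

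For 1425923_PM_at the eMC CIC-DUX4 arrays read 8.02, 8.07, 6.81 and 6.10, against 14.60, 14.61, 14.11 and 13.93 in eMC empty. The groups were far apart, and every array with a dip was bright for this probe set. The log2 fold change of eMC CIC-DUX4 over eMC empty was -7.06 ± 0.45 (SE, n = 4 each) and -8.47 ± 0.12 after quantile normalization. It was the lowest fold change of all 26897 probe sets on both scales. As the genes were selected on this contrast, it is a description without a test.

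The other probe sets of Mycn were dim in all 4 eMC empty arrays (means 2.33 and 2.66), so a drop from that level could not be measured with them. For 1417155_PM_at the eMC CIC-DUX4 arrays read 4.97, 6.69, 1.97 and 1.97, against 2.75, 2.43, 2.26 and 1.90 in eMC empty. For 1425922_PM_a_at they read 5.96, 6.83, 2.73 and 2.04, against 2.63, 3.22, 2.45 and 2.33. In both, the upper 2 eMC CIC-DUX4 values came from the arrays with a high median, and the groups overlapped. The log2 fold changes were 1.57 ± 1.197 and 1.73 ± 1.13, with quantile values of 0.42 and 0.31, and without the arrays of high median they were -0.37 and -0.27.

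In tumors, 1425923_PM_at ran from 11.76 through a median of 12.32 to 12.89 in CDS tumors, and from 12.06 through 12.29 to 12.90 in ES tumors. These ranges overlapped almost whole, and all 12 arrays were bright. The log2 fold change of CDS over ES was -0.10 (95% interval -0.64 to 0.43, limma adjusted p = 0.788), and -0.20 (-0.65 to 0.24, adjusted p = 0.474) after quantile normalization. The intervals leave room for a CDS level lower by up to 0.64 or 0.65 on the log2 scale.

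Both tumor types lay between the eMC groups for this probe set. CDS tumors were 5.05 ± 0.48 (SE) above eMC CIC-DUX4 (quantile 7.05) and -2.01 ± 0.29 from eMC empty (quantile -1.42). ES tumors were -1.91 ± 0.21 from eMC empty (quantile -1.22). In each of these 3 comparisons the groups did not overlap. These comparisons reuse the eMC arrays whose values were known when the genes were chosen. For every gene of the family, comparisons of tumors with eMC arrays are therefore descriptions without a p, and the test is that of CDS against ES tumors.

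For 1417155_PM_at, ES tumors were the highest of the 4 groups. CDS tumors ran from 3.65 through 4.41 to 8.32 and were bright in 2 of 6 arrays, CDS 2 (8.13) and CDS 4 (8.32). ES tumors ran from 12.28 through 13.03 to 13.38 and were bright in 6 of 6. The log2 fold change of CDS over ES was -7.43 ± 0.77 (SE, n = 6 each, 95% interval -9.03 to -5.82, limma adjusted p = 1.29e-06) and -7.39 ± 0.36 after quantile normalization (adjusted p = 2.7e-09). CDS 2 and CDS 4 also had the highest shares of bright probe sets among CDS tumors, 57.3% and 45.6% of their arrays. After quantile normalization the 6 CDS values lay between 4.24 and 6.46. With 4 of 6 CDS arrays dim, the size of the fold rests on dim values; with each of those arrays entered at its dip, ES tumors were at least 53.1-fold higher.

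For 1425922_PM_a_at, CDS tumors ran from 2.75 through 3.28 to 5.05, against 6.67 through 8.56 to 9.43 in ES tumors. The ranges were apart, with every ES tumor and 1 CDS tumor bright. CDS tumors fell by 4.80 ± 0.90 (SE, adjusted p = 0.000975) relative to ES tumors, and by 4.30 ± 0.36 after quantile normalization (adjusted p = 6.78e-07). Here 5 of 6 CDS arrays were dim, and with those entered at their dip ES tumors were at least 5.27-fold higher. So 2 of the 3 Mycn probe sets were called lower in CDS tumors and the other differed by less than the spread between arrays.

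Against eMC empty, where no array was bright, ES tumors were at least 65.9-fold higher for 1417155_PM_at (log2 fold change 10.57 ± 0.39, quantile 10.62). For 1425922_PM_a_at they were at least 2.87-fold higher (5.73 ± 0.75, quantile 4.73). For every such bound a dim array entered at its dip, and a bright one at its own signal. CDS tumors stood 3.14 ± 0.98 (quantile 3.23) above eMC empty for 1417155_PM_at, without overlap, and 0.93 ± 0.50 (quantile 0.43) for 1425922_PM_a_at, with overlap. All eMC empty arrays and most CDS arrays were dim for both, the CDS mean was under the mean dip of eMC empty, and no least fold can be given. Against eMC CIC-DUX4 the CDS differences were 1.58 ± 1.28 (quantile 2.81 ± 0.38) and -0.80 ± 1.03 (quantile 0.12). For 1417155_PM_at these groups overlapped as deposited but not after quantile normalization. On that scale CDS tumors ran from 4.24 to 6.46 and eMC CIC-DUX4 from 2.74 to 2.99.

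Myc itself was bright in 18 of the 19 arrays with a dip. Its single probe set, 1424942_PM_a_at, ran from 10.01 through 10.79 to 11.20 in CDS tumors, against 11.46 through 11.78 to 12.07 in ES tumors. All 6 CDS tumors lay below all 6 ES tumors. The log2 fold change of CDS over ES was -1.05 ± 0.30 (SE, 95% interval -1.67 to -0.42, limma adjusted p = 0.0195) and -1.02 ± 0.21 after quantile normalization (adjusted p = 0.00129). The call was lost without CDS 5 (-0.90, under the minimum fold change), without ES 47 (adjusted p = 0.0534), without ES 51 (-0.99, adjusted p = 0.0597) and with all 4 groups in 1 fit (adjusted p = 0.0531).

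In culture, Myc read 10.61, 10.51, 10.58 and 10.64 in eMC CIC-DUX4, against 9.48, 7.55, 10.25 and 10.55 in eMC empty. The eMC empty arrays spread widely, and eMC empty 5, the only array below its dip for Myc, also had the lowest share of bright probe sets (11.1%). After quantile normalization the eMC empty values lay between 10.09 and 10.29, and the fold change of eMC CIC-DUX4 over eMC empty moved from 1.13 to 0.11. ES tumors exceeded eMC empty by 2.34 ± 0.48 (SE) and by 1.59 ± 0.17 after quantile normalization, without overlap on either scale. CDS tumors were 1.29 ± 0.60 above eMC empty (quantile 0.57 ± 0.20) and 0.17 ± 0.37 above eMC CIC-DUX4 (quantile 0.46 ± 0.20), and these ranges overlapped on both scales.

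Mxi1, the Max partner that opposes Myc, stood above eMC empty in both tumor types by its probe set 1450376_PM_at. CDS tumors ran from 8.73 through 10.41 to 11.18 and ES tumors from 9.93 through 10.77 to 11.53. The eMC CIC-DUX4 arrays read 9.99, 9.81, 10.01 and 10.09, against 4.72, 5.26, 4.48 and 8.38 in eMC empty. Every eMC empty array lay below every array of the other groups, and the 8.38 came from eMC empty 7, the only bright one. CDS tumors exceeded eMC empty by 4.51 ± 0.85 (SE) and by 2.27 ± 0.30 after quantile normalization. ES tumors exceeded it by 5.02 ± 0.70 and by 2.42 ± 0.38 after quantile normalization.

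The same probe set was 4.26 ± 0.79 higher in eMC CIC-DUX4 than in eMC empty and 1.24 ± 0.14 higher after quantile normalization. This is a description, since the contrast chose the gene. CDS tumors differed from eMC CIC-DUX4 by 0.24 ± 0.48 with overlap, and by 1.04 ± 0.27 after quantile normalization without overlap. CDS and ES tumors differed by -0.51 (-1.397 to 0.38, limma adjusted p = 0.382, quantile -0.14). The 3 comparisons with eMC empty share their 4 reference arrays.

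The second Mxi1 probe set, 1425732_PM_a_at, depended on the scale. CDS tumors ran from 3.65 through 4.61 to 8.32, with CDS 2 and CDS 4 again the bright pair, and ES tumors from 3.70 through 7.27 to 7.60. The eMC CIC-DUX4 arrays read 8.33, 8.53, 8.05 and 7.21, against 4.15, 4.15, 3.80 and 3.37 in eMC empty. Those eMC groups were 4.16 apart as deposited (at least 2.25-fold, a bound for that scale only). They were 0.30 apart after quantile normalization, where the ranges overlapped. ES tumors differed from eMC empty by 2.69 ± 0.88 as deposited and by 0.21 ± 0.32 after quantile normalization, with overlap on both scales. CDS tumors differed from eMC empty by 1.49 ± 1.04, with the other sign after quantile normalization (-0.29). They differed from eMC CIC-DUX4 by -2.67 ± 1.04 (quantile -0.58) and from ES tumors by -1.20 (adjusted p = 0.419, quantile -0.50).

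**Figure D2:**
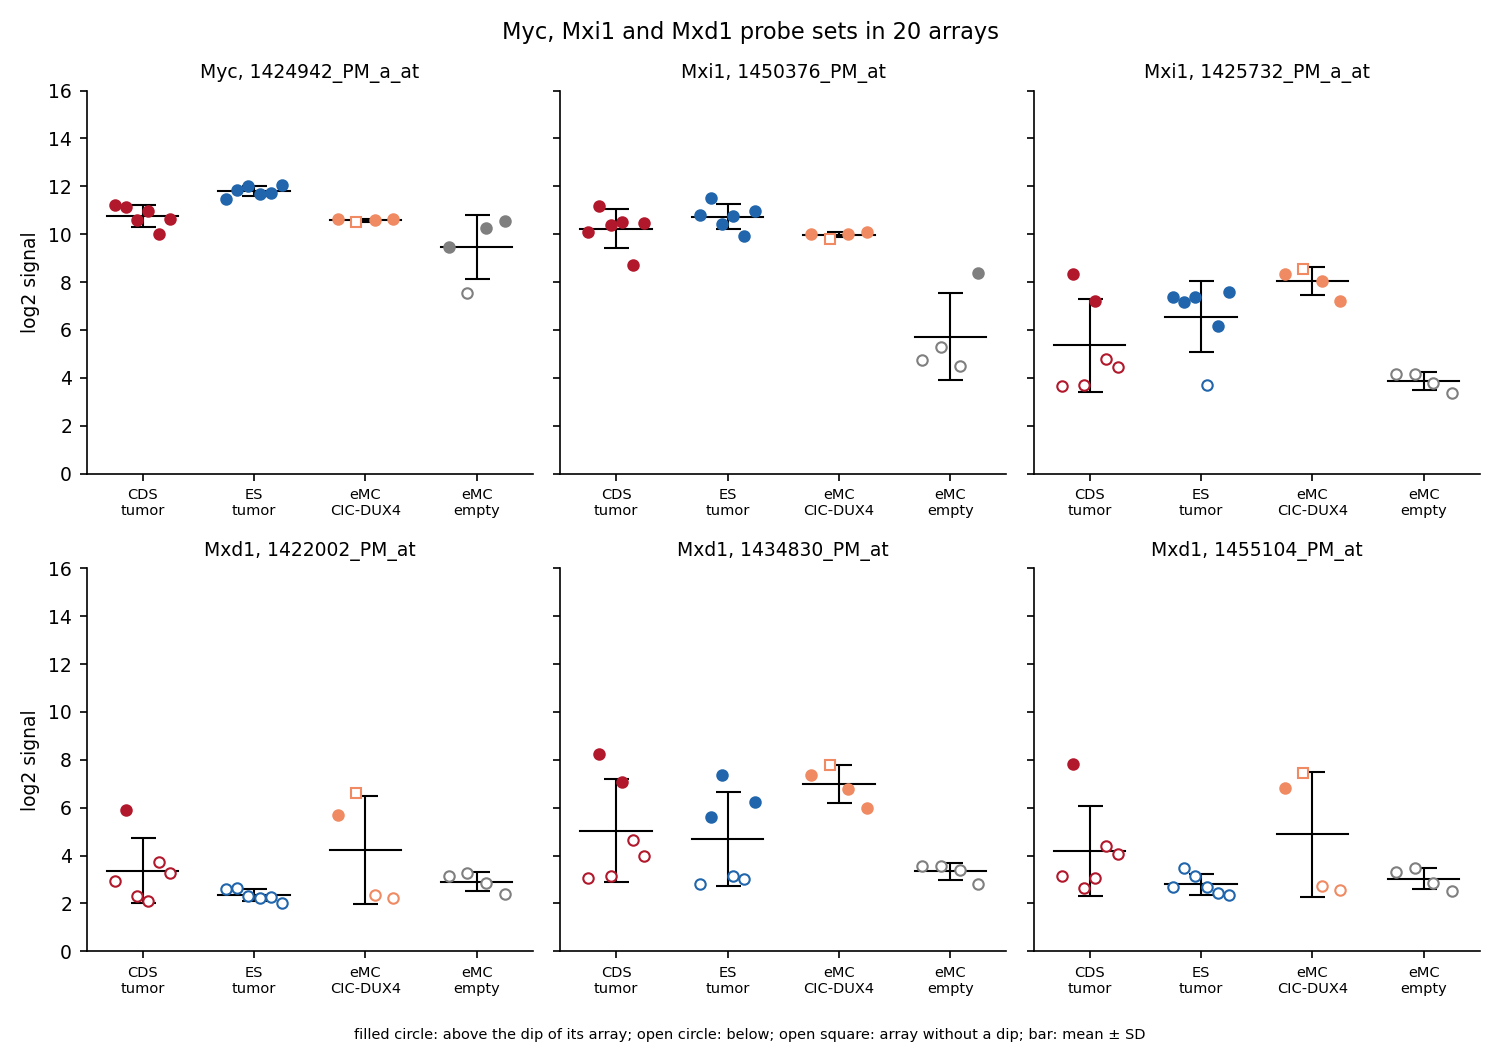
Log2 signal (y axis) of the Myc, Mxi1 and Mxd1 probe sets in each of the 20 arrays, by group (x axis), with the same marks as in the plot of the Mycn probe sets and bars for mean ± SD. In Mxi1 1450376_PM_at the 4 eMC empty arrays lie between 4.48 and 8.38, under all 16 others; the Mxd1 probe sets are dim in all 4 eMC empty arrays.

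Mxd1, the founding member of the Mad group of Max partners, was dim in most arrays and was not called between CDS and ES tumors. Probe set 1434830_PM_at ran from 3.08 through 4.32 to 8.25 in CDS tumors, against 2.80 through 4.37 to 7.35 in ES tumors. It was bright in 2 of 6 CDS tumors and 3 of 6 ES tumors, and the ranges overlapped. The difference of CDS over ES was 0.34 (-2.01 to 2.69, adjusted p = 0.846, quantile -0.17), an interval wide enough to hold a 4-fold change in either direction. In eMC CIC-DUX4 it read 7.38, 7.78, 6.78 and 5.97, against 3.55, 3.57, 3.41 and 2.81 in eMC empty, at least 1.09-fold apart as deposited. The log2 fold change was 3.64 ± 0.49 as deposited and 0.48 ± 0.24 after quantile normalization, where the ranges overlapped.

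Probe set 1455104_PM_at was bright in 1 CDS tumor, CDS 2 (7.81), and in no ES tumor. The other 5 CDS tumors read between 2.66 and 4.38, against 2.34 to 3.46 in ES tumors. CDS tumors differed from ES tumors by 1.398 (-0.08 to 2.87, adjusted p = 0.150, quantile 0.47), and the eMC groups by 1.85 ± 1.17 (quantile 0.22) with overlap. Probe set 1422002_PM_at, left out of the tests, averaged 3.37 ± 1.38 in CDS tumors, 2.35 ± 0.24 in ES tumors, 4.22 ± 2.26 in eMC CIC-DUX4, and 2.91 ± 0.39 with the empty vector (SD). Its bright arrays were CDS 2 and eMC CIC-DUX4 5, both of high median.

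**Figure D3:**
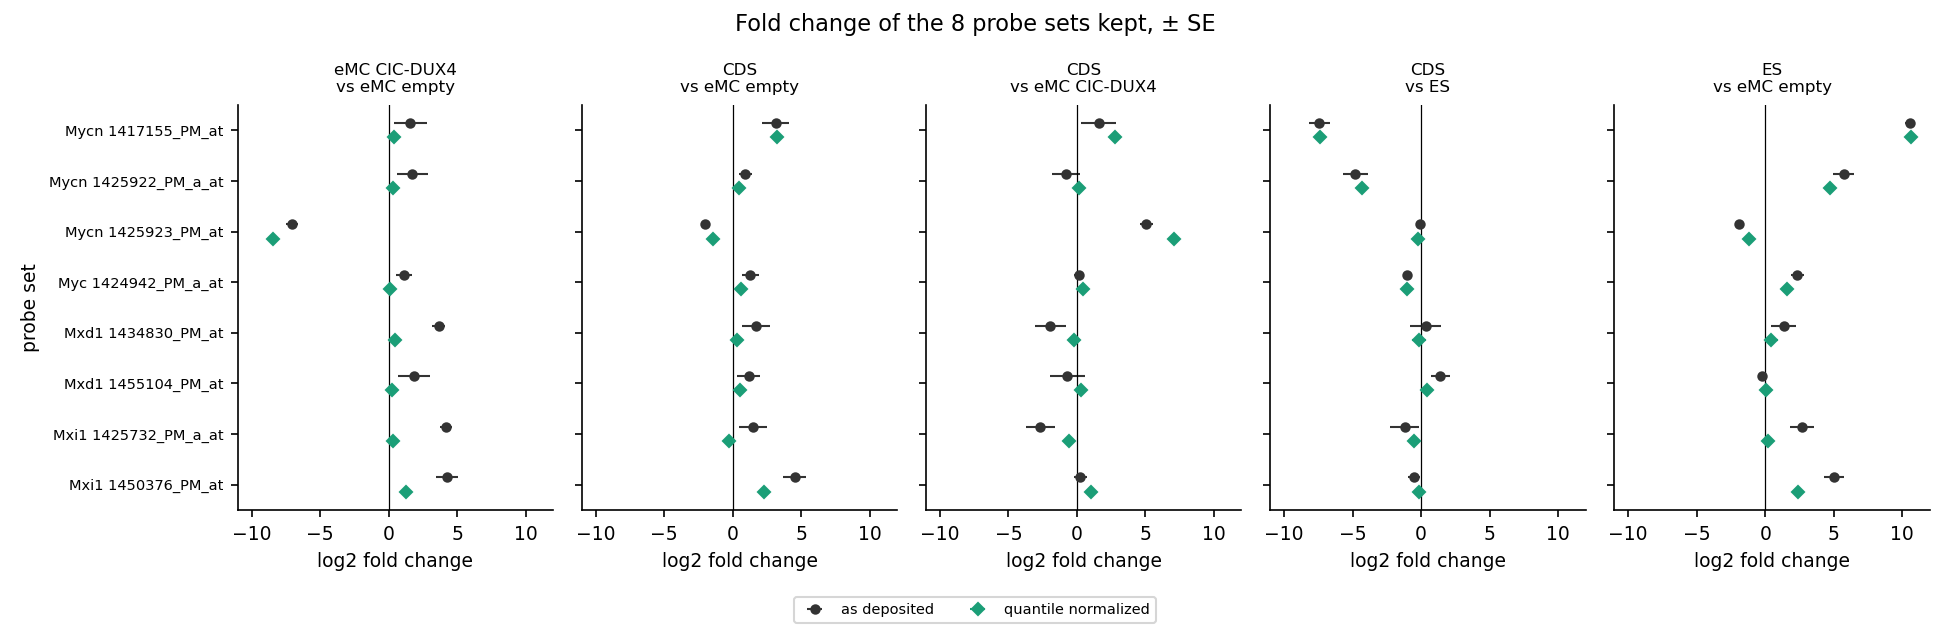
Log2 fold change (x axis) of the 8 probe sets tested (y axis) in the 5 comparisons, as deposited (circles) and after quantile normalization (diamonds), with SE as horizontal bars. Mycn 1425923_PM_at stands at -7.06 in the eMC comparison and at -0.10 in CDS against ES, where the other Mycn probe sets stand at -7.43 and -4.80.

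Counted together, 3 of the 8 probe sets were called lower in CDS tumors than in ES tumors and 0 higher. Of all probe sets, 19.8% were called in this comparison and 8.71% were called lower. After quantile normalization 3 of the 8 were again called lower, where 30.8% of all were called and 15.7% were lower. Of these 3, 2 were probe sets of Mycn that ran alike, so the calls belong to Mycn and Myc alone. With 1 probe set a gene, the one of highest mean, 1 of the 4 genes was called lower on both scales, Myc. Of all genes, 9.85% were called lower as deposited and 16.2% after quantile normalization. In ES tumors against eMC empty, 3 of the 5 probe sets of Myc, Mxd1 and Mxi1 passed the call, all higher, where 35.6% of all were called and 25.8% were higher; quantile normalization left 2 calls (37.0% of all). Of these 5, 1 passed as higher in CDS tumors against eMC empty (18.1% of all called, 13.2% higher, and 38.1% called after quantile normalization). In CDS tumors against eMC CIC-DUX4, 0 of the 5 passed the limma call (16.6% of all); 1 had an unadjusted p under 0.05, and 1 passed after quantile normalization (36.1% of all). In eMC CIC-DUX4 against eMC empty 4 of the 8 passed the call, 3 higher and 1 lower, and 1 higher and 1 lower after quantile normalization. There 47.5% of all probe sets were called, 43.4% higher and 4.18% lower. Quantile normalization brought these shares to 13.5%, with 7.43% higher and 6.11% lower. The genes were selected on the eMC contrast, so nothing is read from the counts that involve eMC arrays.

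The order of the group means was ES, CDS, eMC CIC-DUX4 and eMC empty, from high to low, for Mycn 1417155_PM_at, Myc and Mxi1 1450376_PM_at. For Myc, CDS tumors and eMC CIC-DUX4 overlapped and so did both eMC groups. For Mxi1 1450376_PM_at, the neighbours overlapped as deposited except eMC empty. For Mycn 1417155_PM_at, ES tumors stood apart from CDS tumors, and the eMC groups overlapped. For these probe sets of Mxi1 and Mycn, CDS tumors overlapped eMC CIC-DUX4 as deposited but not after quantile normalization. Mycn 1425923_PM_at ran in another order, eMC empty, ES, CDS and eMC CIC-DUX4, in which the tumors alone overlapped. The other 5 probe sets, Mycn 1425922_PM_a_at, Mxi1 1425732_PM_a_at and the 3 of Mxd1, changed their order after quantile normalization, and the 4 just named kept it.

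Some genes ran closely with single Mycn probe sets across the 20 arrays on the quantile scale. Nckap5, Wasf1, an actin regulator of the WAVE complex, and Map2k6, a kinase upstream of p38, had r of 0.990, 0.988 and 0.987 with 1417155_PM_at. Krt20, an epithelial keratin, Lemd1 and Mmel1 had 0.987, 0.987 and 0.986 with 1425922_PM_a_at. Mean quantile signals of Krt20 were 2.33 in CDS tumors, 12.47 in ES tumors, 2.14 in eMC CIC-DUX4, and 2.22 with the empty vector. For 1425923_PM_at the closest were Slc35b1, Selenos and Tmem208, at 0.906, 0.898 and 0.890. Slc35b1 averaged 11.21 in eMC CIC-DUX4, against 12.17 in eMC empty. All 3 code for proteins of the endoplasmic reticulum.

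For Myc the closest were Bcl11a, a zinc finger transcription factor, Paqr8 and Rsf1 (r of 0.951, 0.947 and 0.945). For Mxi1 1450376_PM_at they were Sema6d, Apoe and Snhg6 (0.909, 0.905 and 0.878), and for Mxd1 1434830_PM_at Cep170, Mfap1a and Eif4b (0.727, 0.715 and 0.715). The points share arrays and groups, and the correlations are given without a test.

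The other partners of Max and its relative Mlx were compared as well, 8 genes on the array. Between CDS and ES tumors 1 was called higher and 1 lower as deposited, and 1 higher and 2 lower after quantile normalization. Mlx was called lower only after quantile normalization (-2.13, adjusted p = 0.00353, as deposited -2.91 ± 1.06, adjusted p = 0.0550). Mxd4, a Max-binding repressor, averaged 12.18 ± 0.63 in CDS tumors, against 9.91 ± 0.43 in ES tumors (log2 fold change 2.27 ± 0.36, adjusted p = 0.000156, quantile 2.89). Mlxip, which pairs with Mlx and senses glucose metabolites, averaged 5.72 ± 1.83 in CDS tumors and 8.46 ± 0.29 in ES tumors (-2.74 ± 0.89, adjusted p = 0.0358, quantile -1.96). With 1 probe set a gene, 21.1% of 12343 genes were called in this comparison, 11.2% higher and 9.85% lower. Mxd4 was also higher in CDS tumors than in eMC CIC-DUX4 (1.75 ± 0.36, adjusted p = 0.00362, quantile 2.14) and than in eMC empty (2.75 ± 0.62, adjusted p = 0.00356, quantile 1.79). Mga, a large Max partner that represses transcription, exceeded eMC empty by 4.45 ± 0.78 in CDS tumors (adjusted p = 0.0004, quantile 2.16) and by 3.95 ± 0.61 in ES tumors (adjusted p = 0.000266, quantile 1.21).

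Known targets of Myc in ribosome biogenesis were lower in CDS tumors than in ES tumors where they changed. Of 12 tested genes 5 were called lower and 0 higher as deposited, 8 lower after quantile normalization and 11 after setting all arrays to 1 common median, where 9.85%, 16.2% and 20.5% of all genes were called lower. The median log2 fold change of the list was -1.28, beside 0.02 for all genes, and -1.19 beside -0.03 after quantile normalization. At the common median it was -2.46, where the median of all probe sets also moved down, to -0.86. Polr1b, a subunit of RNA polymerase I, averaged 5.20 ± 2.01 in CDS tumors, against 9.05 ± 0.49 in ES tumors (-3.84 ± 0.93, adjusted p = 0.00694, quantile -3.10). Wdr12, a large-subunit assembly factor, averaged 7.82 ± 1.76 in CDS tumors and 11.06 ± 0.27 in ES tumors (-3.24 ± 0.66, adjusted p = 0.00192, quantile -2.996). Its complex partner Pes1 fell by 1.56 ± 0.48 (adjusted p = 0.0286, quantile -1.30) and Dkc1, which modifies ribosomal RNA, by 1.34 ± 0.27 (adjusted p = 0.00167, quantile -1.46). Without CDS 2, the CDS array of high median, 6 of the 12 were called lower (11.5% of all genes). This setting and the other alternatives for these lists were chosen after seeing the data.

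Of 14 metabolic and growth targets, 4 were called lower in CDS tumors and 1 higher, with a median of -1.04, and 6 lower and 1 higher after quantile normalization, with a median of -0.69. Of all genes, 9.85% were called lower and 11.2% higher (median 0.02), and on the quantile scale 16.2% and 16.8% (median -0.03). Shmt2, the mitochondrial serine hydroxymethyltransferase, averaged 5.47 ± 2.22 in CDS tumors, against 9.88 ± 0.96 in ES tumors (-4.41 ± 0.94, adjusted p = 0.0029, quantile -3.65). Ppat, an early enzyme of purine synthesis, fell by 3.08 ± 0.58 (adjusted p = 0.00105, quantile -3.10) and Apex1, a base excision repair nuclease, by 2.47 ± 0.64 (adjusted p = 0.0113, quantile -2.17). Ccnd2, cyclin D2, moved the other way, with 15.62 ± 0.70 in CDS tumors and 9.36 ± 0.75 in ES tumors (6.26 ± 0.36, adjusted p = 3.41e-10, quantile 6.80).

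Genes that Myc is known to repress were called higher in 2 of 6 cases and lower in 0, as they were after quantile normalization (16.8% of all genes higher). They were Ndrg1, a stress and differentiation gene (2.06 ± 0.48, adjusted p = 0.00515, quantile 2.67), and Cdkn1a, the cell cycle inhibitor p21 (1.59 ± 0.45, adjusted p = 0.0169, quantile 2.18). After setting all arrays to 1 common median, which moved the median of all probe sets to -0.86, limma called 0 of the 6; 3.87% of genes were called higher there. Of 8 genes that act on Myc protein stability, 1 was called lower, Aurka, the kinase that stabilizes N-myc protein (-2.70 ± 0.68, adjusted p = 0.00923, quantile -2.52). Of 9 cell cycle genes, 1 was called lower, Ccne1, cyclin E1 (-3.59 ± 0.86, adjusted p = 0.00636, quantile -2.44). Among all genes 9.85% were called lower.

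**Figure D4:**
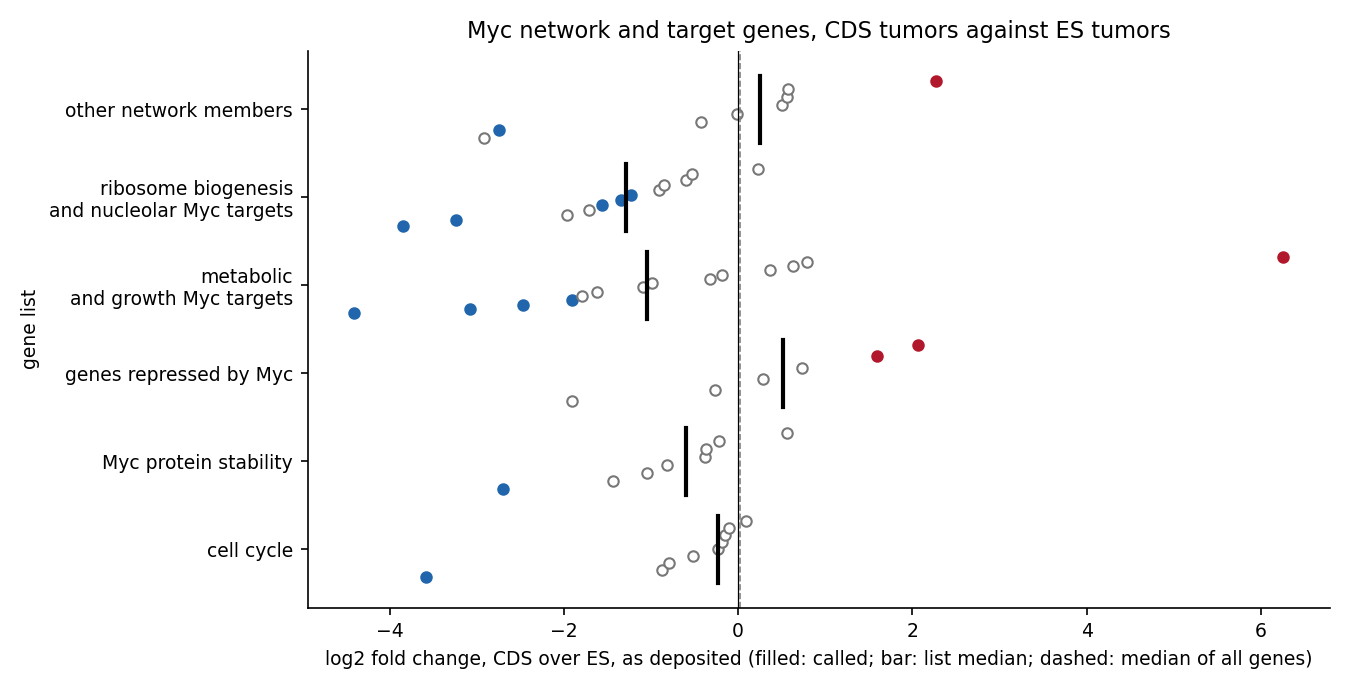
Log2 fold change of CDS over ES tumors as deposited (x axis) for the genes of 6 lists around Myc (y axis). Filled points were called, open points were not, the thick bar is the median of the list and the dashed line that of all genes (0.02). The ribosome biogenesis list has its median at -1.28 and the metabolic list at -1.04, with Ccnd2 far to the right at 6.26.

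Markers of other cell types were also compared. Between CDS and ES tumors, 5 of 9 mesenchymal markers were called higher and 1 lower on both scales. Col1a2 and Twist1 were dim in every ES tumor. As deposited, 2 of 6 endothelial markers were called higher and 1 of 4 keratinocyte markers lower. After quantile normalization these counts were 4 of 6 and 1 of 4. Of all genes, 11.2% were called higher and 9.85% lower as deposited, and 16.8% and 16.2% after quantile normalization. The ranges of the summed signals overlapped for the cell types below, except endothelial cells and keratinocytes. Summed signals of 6 endothelial markers ran from 12.11 to 13.07 (log2) in CDS tumors, against 8.26 to 11.64 in ES tumors, with Tek and Vwf dim in every ES array. Those of 5 skeletal muscle markers ran from 9.003 to 17.72 in CDS tumors and from 4.14 to 17.25 in ES tumors, those of 7 macrophage markers from 13.64 to 16.18 in CDS and from 14.21 to 15.77 in ES tumors, and those of 4 keratinocyte markers from 4.62 to 8.36 in CDS and from 8.40 to 13.48 in ES tumors. For 5 lymphocyte markers the ranges were 8.78 to 11.32 in CDS and 9.59 to 11.33 in ES tumors. Among these markers, Cd3g, Cd79a and Ms4a1 were dim in every CDS and ES tumor, and Cd3e in every ES tumor. For 2 adipocyte markers the ranges were 12.25 to 14.84 in CDS and 11.97 to 14.07 in ES tumors. The part of these cells in the differences above was not tested. All 5 CIC-DUX4 response markers (Etv1, Etv4, Etv5, Spred1 and Dusp6) were bright in every CDS tumor and called higher there than in ES tumors, 4 of them were also bright in every ES tumor, and Etv4 was dim in the 3 eMC CIC-DUX4 arrays that had a dip. Of 8 Ewing sarcoma markers, 3 were bright in every ES tumor and Nr0b1 and Dkk2 were dim in all of them. In the other samples 3 were likewise bright in every CDS tumor and 4 in every eMC empty array. In eMC CIC-DUX4, 6 were bright in all 3 arrays that had a dip. Of the 6 Ewing sarcoma markers tested, 0 were called lower and 1 higher in CDS than in ES tumors. In ES tumors against eMC empty 5 were called lower and 1 higher, where 2629 of all 26897 probe sets were called lower and 6950 higher. Of 9 mesenchymal markers, 9 were bright in the same 3 eMC CIC-DUX4 arrays and 4 in all eMC empty arrays, and Col1a2 was dim in every eMC empty array.

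The ribosome list behaved differently against the eMC groups. ES tumors had 5 of 12 called higher than eMC empty and 0 lower, with a median of 0.87 beside 0.64 for all genes (29.9% of genes called higher); Bop1 and Polr1b led with 5.46 ± 0.54 and 4.91 ± 0.56 (adjusted p = 1.04e-05 and 2.94e-05, quantile 2.24 and 2.15). CDS tumors had 1 higher and 1 lower than eMC empty (14.4% and 5.74% of all genes), Bop1 (3.49 ± 1.08, adjusted p = 0.0292) and Nop58 (-1.24 ± 0.35, adjusted p = 0.0162). After quantile normalization Bop1 was 1.17 and still called, Nop58 was -0.86 and not called, and Wdr12 was called lower (-2.06, adjusted p = 2.07e-05). Against eMC CIC-DUX4 they had 1 higher (5.09% of all genes), Nop56, at 1.60 ± 0.33 (adjusted p = 0.00384, quantile 2.00). In eMC CIC-DUX4 against eMC empty, 2 were called higher and 6 lower as deposited, with a median of -0.60 beside 2.07 for all genes, and 0 higher and 5 lower after quantile normalization. Npm1, the nucleolar chaperone nucleophosmin, averaged 13.77 ± 0.22 in eMC CIC-DUX4, against 15.21 ± 0.36 in eMC empty (-1.44 ± 0.18, quantile -0.17). Bop1 and Polr1b were called higher as deposited (3.26 and 2.88) and lower after quantile normalization (-1.47 and -1.08).

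Of the metabolic list, 3 genes were called higher and 6 lower in eMC CIC-DUX4 than in eMC empty, and quantile normalization left 0 higher and 3 lower. Nme1, a nucleoside diphosphate kinase, was lower on both scales (-1.85 ± 0.16, quantile -1.04). Of the genes repressed by Myc, 3 were called higher and 0 lower. Gadd45a, a stress response gene (3.56 ± 0.82, quantile 2.46), and Cdkn1b, the inhibitor p27 (3.01 ± 0.76, quantile 1.31), were called on both scales. Ndrg1 was called only as deposited (3.31, quantile -0.23). In this comparison 46.4% of genes were called higher and 4.62% lower as deposited, and 8.13% and 4.81% after quantile normalization. This contrast chose the genes of the family, and the lists were chosen with earlier results known. The counts and fold changes of the lists in it are therefore descriptions.

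The neighbours of Mycn on chromosome 12 were followed because the Mycn region is often amplified as a block in human neuroblastoma. Cyria (12262134 to 12380965) ran from 3.25 to 8.24 in CDS tumors and from 10.09 to 11.59 in ES tumors by its probe set 1454806_PM_at. As with Mycn 1417155_PM_at, 2 CDS tumors, CDS 2 and CDS 4, and all 6 ES tumors were bright. The log2 fold change of CDS over ES was -5.48 ± 0.87 (adjusted p = 0.000187, quantile -5.20), and that of ES over eMC empty was 7.61 ± 0.52 (adjusted p = 5.96e-07, quantile 6.58). The same probe set was 3.49 ± 0.60 higher in eMC CIC-DUX4 than in eMC empty. That difference was called as deposited but not after quantile normalization (0.84). A second Cyria probe set, 1431045_PM_at, was not kept; it ran from 2.16 to 4.06 in CDS tumors (1 bright) and from 2.24 to 2.82 in ES tumors (0 bright). Ddx1 (13219307 to 13249174), an RNA helicase gene, by 1415915_PM_at averaged 12.07 ± 0.34 in CDS tumors and 12.98 ± 0.23 in ES tumors. That difference, -0.90 ± 0.23 (adjusted p = 0.00993), was under the minimum fold change as deposited and past it after quantile normalization (-1.09, adjusted p = 1.4e-05). Its other probe set, 1440816_PM_x_at, averaged 11.68 ± 0.40 in CDS tumors and 12.86 ± 0.22 in ES tumors and was called lower on both scales (-1.18 ± 0.25, adjusted p = 0.00252, quantile -1.37, adjusted p = 5.39e-06). Against eMC empty, ES tumors differed by 0.11 ± 0.17 (adjusted p = 0.586, quantile 0.64) for Ddx1 1415915_PM_at. For Ddx1 1440816_PM_x_at the difference was 0.57 ± 0.15 (adjusted p = 0.00961, quantile 0.96). Neither Ddx1 probe set was called in that comparison on either scale. The single probe set of Nbas was not kept, and it was dim in every CDS and ES tumor. DNA copy number was not measured.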

How the data were processed

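RNA of 20 samples was measured on 1-colour Affymetrix arrays. The deposited values are log2 MAS5 signals, per the submitters' processing notes; the MAS5 version is not given in the sources used here. After 104 control probe sets were left out, 45037 remained, of which 28898 have 1 gene symbol, 551 several and 15588 none; probe sets with several or none were not named. The linear signal plus 1.42 (0.25 of the median array median) was taken to log2, and 26897 probe sets above the median of their array in at least 4 arrays were kept. The trimmed mean (2%) of the arrays was 500.1 to 500.3. Arrays number 4 to 6 a group, which limits the precision.

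Each pair of groups was fitted with limma 3.58.1 in R 4.3.3 (lmFit, eBayes with trend), with p-values two-sided and Benjamini-Hochberg adjusted over all 26897 probe sets; a probe set was called where the adjusted p was below 0.05 and the log2 fold change reached 1 in either direction. Every adjusted p given here is from that limma test. Python 3.11.15 and scipy 1.17.1 made the descriptions, and the fits were tested on simulated data. The genes, lists and tests were chosen with earlier results of these data known. Comparisons that involve eMC arrays are given as descriptions for every member, without p, although tests had been planned for Myc, Mxd1 and Mxi1. Named genes were all members, from up to 4 called genes of the largest absolute fold change per list and comparison, and the 3 probe sets of highest Pearson r with each Mycn probe set and with the brightest kept probe set of the other genes (quantile normalized, 20 arrays); Ddx1 was added after its values were seen, as the only other tested neighbour of Mycn. A list takes 1 probe set a gene, the one of highest mean. The alternatives were the offset, the filter, the normalization, pooled groups, array weights, thresholds, leaving out arrays and a replicate block.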

Additional observations from a re-analysis of the deposited data

Results flagged for a closer look

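A single array stood far from its group in 2 cases among the 36 groups of 4 to 6 arrays examined, where chance gives about 1 in 20. The count of 2 among 36 is near that share. Mxd1 1455104_PM_at read 7.81 in CDS 2, against 2.66 to 4.38 in the other CDS tumors. Mxi1 1425732_PM_a_at read 3.70 in ES 48, against 6.14 to 7.60 in the other ES tumors. CDS 2 had the highest array median of the CDS tumors (5.67 log2) and ES 48 the lowest share of bright probe sets of the ES tumors (27.9%); their part in these values was not tested.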

How the results depend on the processing

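Of the member probe sets, 4 of 8 passed the call in eMC CIC-DUX4 against eMC empty, where 12785 of all 26897 passed. After quantile normalization 2 of the 8 passed (3643 of all). With arrays set to 1 common median 0 passed, and limma called 0 of all probe sets. With the probe sets of a gene averaged, 2 of the 4 genes passed, beside 7128 of all 12343 genes. The difference for Mycn 1425923_PM_at was -8.47 after quantile normalization, -8.63 at a common median and -7.86 without the arrays of high median, which gave -0.37 for 1417155_PM_at and -0.27 for 1425922_PM_a_at. In CDS tumors against eMC empty the count was 1, where 4863 of all probe sets were called. It was 0 at a common median (2070 of all) and 2 with all 4 groups in 1 fit (6352). In CDS tumors against eMC CIC-DUX4 the count was 0, where 4456 of all probe sets were called. It was 1 after quantile normalization (9713 of all), 1 with all 4 groups in 1 fit (6565), 1 with array weights (6856) and 3 with a replicate block (17690). The cause was not tested. The order of group levels was kept by 4 of 9 probe sets after quantile normalization and by 3 at a common median.

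Leaving out 1 array at a time gave 4 to 5 calls between the eMC groups (10490 to 14547 of all 26897 probe sets) and 1 in CDS against eMC empty (2774 to 6103 of all). In CDS against eMC CIC-DUX4 it gave 0 to 1 (2097 to 7219 of all), with 1 without CDS 2 (7219) or CDS 4 (6132). In CDS against ES it gave 2 to 3 (3550 to 6184 of all), and in ES against eMC empty 2 to 3 (7717 to 10417 of all). The Mycn differences between the eMC groups then ran from 0.64 to 2.21 for 1417155_PM_at, from 0.92 to 2.52 for 1425922_PM_a_at and from -7.34 to -6.68 for 1425923_PM_at.

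Among the member probe sets, signs turned for differences that were not called. In CDS tumors against eMC CIC-DUX4, Mxd1 1455104_PM_at was 0.30 (quantile), 0.14 (common median), 0.41 (weights) and 0.83 (without the arrays of high median), and from -1.47 to 0.16 with single arrays left out. Mxi1 1450376_PM_at was -0.019 without the arrays of high median. In CDS against ES, Mxd1 1434830_PM_at was -0.17 (quantile), -0.77 (common median), -0.72 (weights) and -0.31 (without CDS 2), and from -0.31 to 0.87 with single arrays left out; Mycn 1425923_PM_at was 0.0034 without CDS 2, and from -0.22 to 0.0034. Mxi1 1425732_PM_a_at was -0.29 in CDS against eMC empty (quantile). Mxd1 1455104_PM_at was 0.055 (quantile) and 0.068 (common median) in ES against eMC empty.

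The sample labels do not say whether shared numbers pair the samples. Same-numbered eMC samples had correlations of 0.409, -0.182 and 0.415 in their deviations. Between eMC samples of different numbers the correlations ran from -0.507 to 0.498, so these values do not settle the pairing. With the replicate block on shared numbers, 5 of 8 were called between the eMC groups, where 15147 of all 26897 probe sets were called. In CDS against eMC empty 1 of 5 was called (4177 of all). In CDS against eMC CIC-DUX4, where only the numbers 5 and 6 are shared, 3 of 5 were called. There 17690 of all probe sets were called, 16219 of them lower, and the median of all was -2.70. The 3 calls are therefore not read as a result about the members. Mxi1 1425732_PM_a_at was -3.82, Mxd1 1434830_PM_at -3.26 and Mxd1 1455104_PM_at -2.91, all lower, while Myc was -0.25 and Mxi1 1450376_PM_at -0.31.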
